A study of Drosophila melanogaster with 8 samples.

Results

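The 10 genes described here are those of the Drosophila melanogaster mitochondrial genome that the deposited gene tables list as COX1, COX2, COX3, ATP6, ATP8, CYTB, ND1, ND4, ND5 and lrRNA. They were chosen by name, and all 10 were found among the 17868 rows of each table, which hold 37 rows of the mitochondrial genome. RNA came from clock neurons sorted out of adult brains. In all 8 libraries the driver ClkGAL4 expressed a nuclear green fluorescent protein (UAS-GFP-NLS) together with an RNA interference construct (UAS-mor-RNAi, from the single stock BDSC#34919) against mor, which encodes the scaffold protein Moira of the Brahma chromatin remodeller. The extract protocol names the sorted flies ClkGAL4>UAS-tetR-GFP-NLS. Flies were kept at room temperature, entrained to 12 h of light and 12 h of dark for 5 days, and collected on day 2 of constant darkness at circadian times CT0, CT6, CT12 and CT18, with 2 libraries (replicate 1 and replicate 2) at each time. For each library about 2000 cells positive for the fluorescent protein and negative for DAPI, a dye that enters dead cells, were sorted into lysis buffer, and cDNA of polyadenylated RNA was read as paired ends. Age, sex and the number of brains pooled are not given in the labels. Control flies were not analysed here, so no statement about the knockdown itself can be made, and mor was measured at 4.14 to 21.8 CPM (CPM: counts as a rate of the library total after scaling by TMM factors).

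The mitochondrial genome encodes subunits of the respiratory chain, which moves electrons and pumps protons, and of ATP synthase, which uses the proton gradient to make ATP; the remaining subunits are encoded in the nucleus and imported. A nuclear-encoded RNA polymerase transcribes both strands into long precursors, the tRNAs between the genes are cut out, and the released mRNAs receive short poly(A) tails inside the organelle. Neurons depend strongly on this system because ion pumping and synaptic transmission consume much ATP.

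Each of the 10 genes has 1 exon and no intron, and positions are those of the Ensembl annotation of the fly assembly (dm6 coordinates, chromosome name mitochondrion_genome). On the plus strand lie COX1 (mt:CoI, FBgn0013674, 1474 to 3009), COX2 (mt:CoII, FBgn0013675, 3083 to 3767), ATP8 (mt:ATPase8, FBgn0013673, 3907 to 4068), ATP6 (mt:ATPase6, FBgn0013672, 4062 to 4736), COX3 (mt:CoIII, FBgn0013676, 4736 to 5524) and CYTB (mt:Cyt-b, FBgn0013678, 10499 to 11635). On the minus strand lie ND5 (mt:ND5, FBgn0013684, 6409 to 8125), ND4 (mt:ND4, FBgn0262952, 8207 to 9545), ND1 (mt:ND1, FBgn0013679, 11721 to 12659) and lrRNA (mt:lrRNA, FBgn0013686, 12735 to 14058). Of these genes 9 encode proteins, and lrRNA is the RNA of the large mitochondrial ribosomal subunit. ATP8 and ATP6 share 7 bases and ATP6 and COX3 share 1 base. No source used here states whether strand was used in counting, so reads in shared bases or from an antisense strand cannot be told apart.

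Libraries of replicate 1 held 27232908 to 29346348 estimated counts and those of replicate 2 held 15006258 to 24680842, with no overlap. The sorted material carried the markers of its label: the neuronal genes elav and nSyb stood at 82.7 to 129.3 and 1293 to 1856 CPM, while the defining glial gene repo reached at most 0.714 CPM and the muscle myosin gene Mhc was at 0 in all 8 libraries. Other listed glial genes were present, with Gs2 at 25.1 to 129.8, nrv2 at 66.5 to 124 and Eaat1 at 13.4 to 69.2 CPM, and flw of the muscle list was at 214 to 304 CPM. Peptide genes that mark subsets of clock neurons set some libraries apart. Pdf, the peptide of the lateral ventral clock neurons, was at 89.2 CPM in the CT6 replicate 1 library against 1646 to 37178 CPM in the others, and Trissin was at 9.03 CPM in the CT12 replicate 1 library against 420.2 to 1674 CPM in the others. NPF, another such peptide gene, was at 10.5 and 43.4 CPM in the CT18 libraries of replicate 1 and 2 and at 28.2 CPM in the CT6 replicate 1 library, against 408 to 2747 CPM in the others. The differences fitted for the 10 genes are therefore also given with each of these libraries left out. In such bulk samples fewer cells of a type and less RNA per cell cannot be told apart.

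Together the 10 genes took a small share of each library, and that share was higher in every replicate 1 library than in any replicate 2 library. In the replicate 1 libraries the share of all estimated counts was 0.167% (CT0), 0.111% (CT6), 0.153% (CT12) and 0.192% (CT18). In the replicate 2 libraries it was 0.0706%, 0.0692%, 0.0983% and 0.0732% at the same times. The lowest replicate 1 value, at CT6, lay above the highest replicate 2 value, at CT12. The means were 0.156% ± 0.0338 (SD, n = 4) and 0.0778% ± 0.0137 (SD, n = 4), and the ratio of replicate 1 to replicate 2 was 2.36 (CT0), 1.60 (CT6), 1.56 (CT12) and 2.62 (CT18). Exact binomial 95% intervals, which cover counting error only, were far narrower than these differences: 0.109 to 0.112% for the CT6 replicate 1 library and 0.0967 to 0.0999% for the CT12 replicate 2 library. On the TPM scale, in which each gene is divided by its effective length, the share was 0.495 to 0.634% in replicate 1 and 0.201 to 0.319% in replicate 2.

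**Figure D1:**
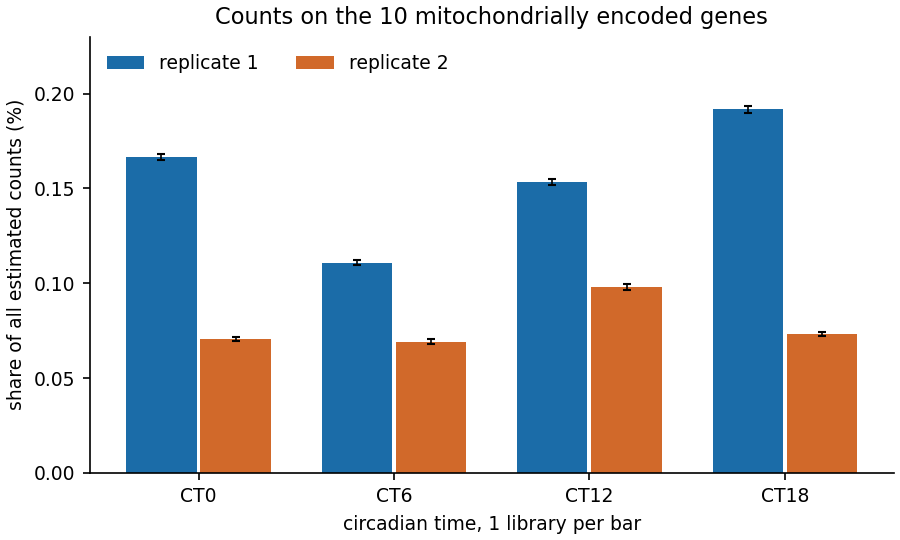
Share of all estimated counts (%) that fell on the 10 mitochondrially encoded genes, 1 bar per library, grouped by circadian time; error bars are exact binomial 95% intervals for counting error. The 4 replicate 1 bars run from 0.111 to 0.192% and the 4 replicate 2 bars from 0.0692 to 0.0983%, without overlap.

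The core of cytochrome c oxidase (complex IV), the enzyme that passes electrons to oxygen, supplied most of these counts. COX1, its catalytic subunit, was at 502.7, 338.7, 472.0 and 610.4 CPM at CT0, CT6, CT12 and CT18 in replicate 1, and at 297.1, 231.9, 342.0 and 241.9 CPM in replicate 2. Replicate 1 was higher at each of the 4 times, by 1.38 to 2.52 times, yet the sets overlapped, because the CT6 replicate 1 value lay just below the CT12 replicate 2 value. COX2, the subunit that takes electrons from cytochrome c, was at 432.2, 276.4, 396.8 and 412.7 CPM in replicate 1 and at 165.9, 181.9, 223.3 and 171.8 CPM in replicate 2. Its sets did not overlap, and the ratio at a given time was 1.52 to 2.61. COX3, the third core subunit, which carries no electron-transfer site, ranged from 93.7 to 144.6 CPM in replicate 1 and from 52.5 to 82.2 CPM in replicate 2, also without overlap.

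CYTB, the haem-bearing subunit of complex III and the one subunit of that complex encoded in mitochondria, also had sets that did not overlap. It was at 379.5, 246.9, 307.9 and 412.4 CPM in replicate 1 and at 137.8, 140.8, 171.8 and 137.3 CPM in replicate 2. The lowest replicate 1 value was above the highest replicate 2 value, with ratios of 1.75 to 3.00 at the same time; its smallest ratio was the highest among the 9 mRNAs.

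The ATP synthase genes behaved alike on this axis. ATP6, the subunit that forms the proton path with the rotor ring, ranged from 136.3 to 211.9 CPM in replicate 1 and from 69.9 to 110.0 CPM in replicate 2. ATP8, a small membrane subunit, ranged from 12.1 to 22.2 CPM and from 4.39 to 8.91 CPM. Neither gene's sets overlapped, and for both the ratio was largest at CT0, at 3.03 and 5.06.

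The complex I genes on the minus strand had few reads. ND1, which lines the quinone site, was at 16.1, 7.74, 12.2 and 14.3 CPM in replicate 1 and at 2.36, 4.95, 5.49 and 6.53 CPM in replicate 2, with no overlap. ND4 and ND5, subunits of the proton-pumping arm, overlapped between the sets. ND4 ranged from 3.11 to 8.96 CPM in replicate 1 and from 1.52 to 4.51 CPM in replicate 2, and ND5 from 1.27 to 2.91 CPM and from 0.717 to 2.07 CPM. At CT6 both were lower in replicate 1, with ratios of 0.884 and 0.951. ND5 rested on 17 to 82 counts a library.

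lrRNA had the widest gap between the sets. It was at 14.8, 5.54, 12.0 and 7.47 CPM in replicate 1 and at 1.73, 1.86, 3.62 and 3.42 CPM in replicate 2, from 153 to 417 and from 39 to 66 counts. Replicate 1 was higher by 2.18 to 8.54 times at the same time, and the sets did not overlap.

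**Figure D2:**
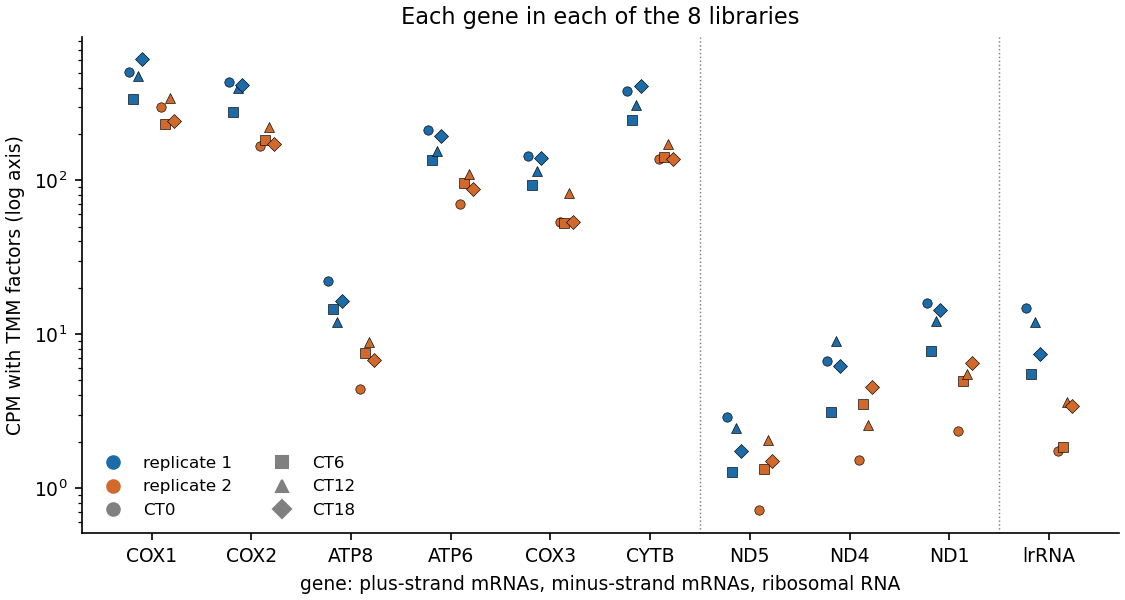
TMM-normalized CPM (log axis) of each of the 10 genes in each of the 8 libraries, with colour for the replicate number and symbol for the circadian time; dotted lines separate plus-strand mRNAs, minus-strand mRNAs and the ribosomal RNA. Replicate 1 points lie above all replicate 2 points for 7 genes, and the sets overlap for COX1, ND4 and ND5.

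Over the set, 7 of 10 genes had every replicate 1 library above every replicate 2 library, against 289 of the 9999 genes tested (2.89%), and 8 of 10 were higher in replicate 1 at all 4 times, against 777 of 9999 (7.77%). The labels do not say what libraries of the same number share. The difference was fitted by edgeR's quasi-likelihood test on all genes, with time kept in the model and Benjamini-Hochberg adjustment over 9999 genes. All 10 genes were negative for replicate 2 minus replicate 1, with a median of -1.04 on the log2 scale, while the median of all genes tested was 0.00 and 49.7% of them were negative. None of the 10 passed an adjusted p of 0.05, and no gene of the 9999 did (0%). At an unadjusted p under 0.05 there were 8 of the 10 genes, against 617 of 9999 (6.17%) in either direction and 362 (3.62%) in the same, negative one. Nothing in the labels says that the libraries came from separate flies, so these p-values measure only the spread between the libraries, which may be technical.

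CYTB ranked 4 of 9999 genes by p, with a log2 difference of -1.18 ± 0.19 (SE; edgeR adjusted p = 0.496). COX2 ranked 9, at -1.02 ± 0.18 (adjusted p = 0.542), and COX3 ranked 19, at -1.03 ± 0.21 (adjusted p = 0.546). The sets of these 3 genes did not overlap, nor did those of ATP6, which ranked 44. lrRNA had the most negative estimate, -1.87 ± 0.49 (adjusted p = 0.630), and ND1 followed at -1.40 ± 0.45 (adjusted p = 0.777). The estimates of COX1, ATP6, ATP8 and ND4 were -0.78, -0.93, -1.25 and -1.06. ND5 was at -0.58 with an SE of 0.80, so its estimate was smaller than its error.

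The call depended on the test. DESeq2, fitted on the same rounded counts, passed 6 of the 10 genes at an adjusted p of 0.05, against 117 of 9417 genes with an adjusted value (1.24%), 94 of them negative (0.998%). They were CYTB (DESeq2 adjusted p = 3.1e-06), COX2 (4.4e-05), COX3 (0.00156), COX1 (0.00731), ATP6 (0.0119) and lrRNA (0.0213). limma-voom passed none of the 10. Without the CT6 replicate 1 library the median over the 10 genes was -1.23, without the CT12 replicate 1 library it was -1.13, and with either one of the CT18 libraries left out it was -0.99. All 10 were negative in these 4 fits. With time in the model, a library left alone at its time adds almost nothing to the replicate difference. Both CT18 fits are therefore nearly the same comparison of the other times. With either one of the CT0 libraries left out the median was -0.89, with all 10 negative and ND5 at -0.13.

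**Figure D3:**
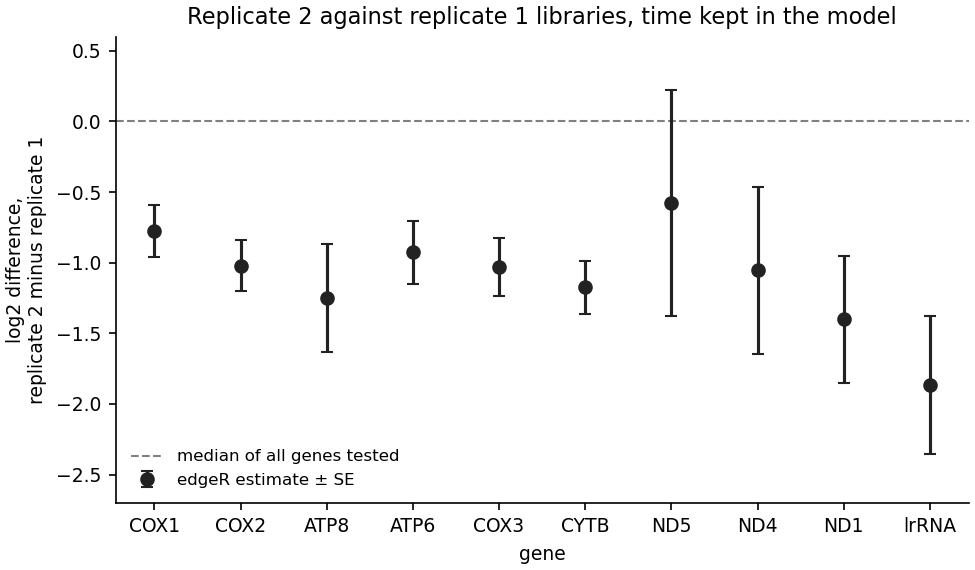
edgeR log2 difference, replicate 2 minus replicate 1, for each of the 10 genes with its standard error; the dashed line is the median of all 9999 genes tested, at 0.00. All 10 estimates lie below the line, from -0.58 for ND5 to -1.87 for lrRNA.

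The proportions of COX1, COX2 and CYTB differed less between the replicate sets than the total of the 10 genes did. These genes supplied most of that total, which limits how far their shares of it can move. The smaller difference is therefore partly built into the measure. COX1 made up 29.0 to 33.7% of the summed counts of the 10 genes in replicate 1 and 32.1 to 40.4% in replicate 2. COX2 made up 22.8 to 26.6% and 22.6 to 25.2%. CYTB made up 20.6 to 22.7% in replicate 1 and 18.04 to 19.5% in replicate 2, which did not overlap. lrRNA made up 0.412 to 0.852% and 0.235 to 0.478%, which overlapped, with means of 0.641% and 0.338%. Around its own mean, the average log2 CPM of the 9 mRNAs had an SD of 0.63 over the 8 libraries. Once this shared movement was subtracted, the SD that remained was 0.12 for ATP6, 0.14 for COX2, 0.18 for COX3 and 0.20 for CYTB. It was 0.27 for ATP8, 0.31 for COX1, 0.34 for ND1, 0.37 for ND5, 0.44 for ND4 and 0.58 for lrRNA. Of the 10 genes, ATP6, COX2, COX3 and CYTB kept the steadiest proportions, and lrRNA moved most on its own.

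Per length the genes spanned a wide range with a gap between the strands. In CPM per kb of annotated length, the mean over 8 libraries was 413 ± 167 (SD) for COX2, 247 ± 87.9 for COX1, 213 ± 99.3 for CYTB, 196 ± 75.4 for ATP6, 116 ± 48.1 for COX3 and 71.8 ± 36.5 for ATP8. It was 9.27 ± 5.21 for ND1, 4.76 ± 3.64 for lrRNA, 3.47 ± 1.85 for ND4 and 1.02 ± 0.411 for ND5. All 6 plus-strand genes stood above all 4 minus-strand genes in each library, and across that gap ATP8 exceeded ND1 by 5.73 to 10.9 times. Neighbours in this order kept it in 8 of 8 libraries except COX1 over CYTB (7 of 8), CYTB over ATP6 (5 of 8) and lrRNA over ND4 (6 of 8). ATP8 and ATP6 are read from a shared precursor and overlap. ATP8 reached 0.262 to 0.447 of the ATP6 level per kb of annotated length, and in TPM ATP6 exceeded ATP8 by 1.83 to 2.81 times. With 162 bases and effective lengths of 47.2 to 58.3, ATP8 is very short. The part of its length in this difference was not tested.

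On the deposited TPM scale the order was COX2 with 1124 ± 520 TPM (SD, n = 8), CYTB with 946 ± 487, COX1 with 899 ± 320.2, ATP6 with 524 ± 229, COX3 with 361 ± 168, ATP8 with 229.8 ± 117, ND1 with 34.2 ± 20.7, lrRNA with 25.1 ± 20.2, ND4 with 18.04 ± 10.8 and ND5 with 6.26 ± 2.83. CYTB and COX1 changed places relative to the order per annotated length, and either of them was the higher in 4 of 8 libraries. The gap between ATP8 and ND1 remained, at 4.91 to 10.7 times.

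**Figure D4:**
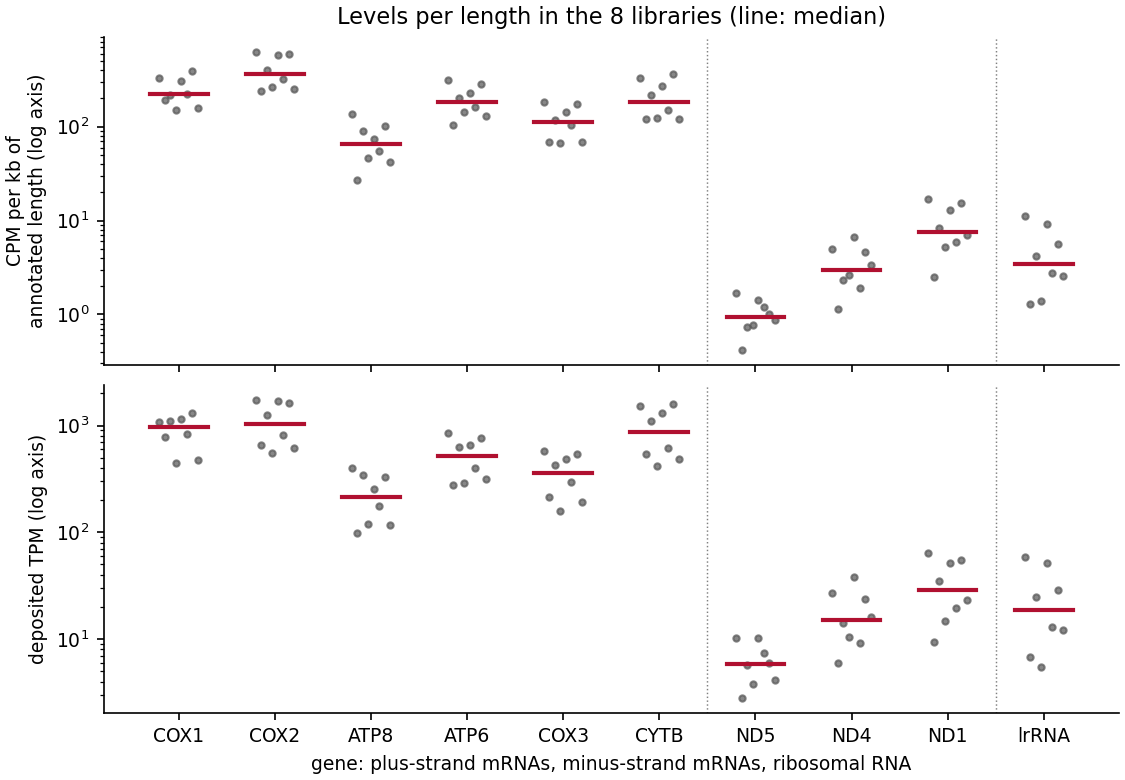
Levels of the 10 genes per length in the 8 libraries, as CPM per kb of annotated length (upper panel) and as deposited TPM (lower panel), both on log axes, with 1 point per library and a line at the median. The 6 plus-strand mRNAs on the left lie above ND5, ND4, ND1 and lrRNA on the right, with ATP8 above ND1 by 5.73 to 10.9 times per kb and 4.91 to 10.7 times in TPM.

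Position on the plus strand did not by itself go with a high level. Among the mitochondrial rows outside the set, the plus-strand complex I genes ND2, ND3 and ND6 had at most 19, 13 and 16 counts in a library, the minus-strand gene ND4L had 0 counts in all 8, and srRNA, the RNA of the small ribosomal subunit, had 1 to 9. The 22 tRNA rows held 53 counts over all libraries. The 10 genes therefore carried 99.863 to 99.96% of mitochondrial counts.

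The 2 scales differ because the deposited effective lengths of these genes are short. Effective length is the number of start positions a fragment could have had, as the quantifier estimates it. For COX1 it was 25.1 to 33.2% of the annotated length, while the median nuclear gene within 10% of its length and with at least 100 counts had 84.4 to 89.2%. For CYTB it was 22.3 to 27.3% against 76.5 to 82.7%, and for ND5 15.7 to 21.4% against 86.3 to 90.5%. For COX2 it was 36.5 to 44.2% against 58.6 to 67.6%. In any library at most 3 nuclear genes of like length lay as low as a given gene of the set; ATP8 had no nuclear gene of its length to compare with. CYTB, ND4 and lrRNA, with annotated lengths of 1137, 1339 and 1324 bases, carried the same effective length within each library, from 254 to 310 bases, so TPM compares these genes by their counts alone.

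The nuclear genes with the shortest effective lengths for their size had mostly negative estimates as well. Among 2667 tested nuclear genes of 600 to 1800 bases with a mean log2 CPM above 3, an effective percentage 20 or more points below the median of genes of like length was found for 47. Of these, 41 were negative for replicate 2 minus replicate 1, with a median of -0.44, while over all 2667 genes 1186 were negative with a median of 0.04. Genes 15 to 20 points below had a median of 0.06 and those 10 to 15 points below -0.04, so the shift was seen at the extreme. The median of the 47 genes was -0.55 at CT0, -0.56 at CT12 and -0.80 at CT18, and it was 0.15 at CT6. All 2667 genes stood at -0.12 at CT0, -0.12 at CT12, 0.03 at CT18 and 0.33 at CT6. The 10 mitochondrial genes had medians of -1.78, -0.62, -0.66 and -1.20 at the 4 times in order. No gene of the 47 passed an adjusted p of 0.05 in edgeR, and 16 had an unadjusted p under 0.05, against 199 of all 2667. Among them Pur-alpha, a nucleic acid binding protein, was at -1.07. The classes were set after the values had been seen, and the part of effective length in the difference between replicates was not tested.

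**Figure D5:**
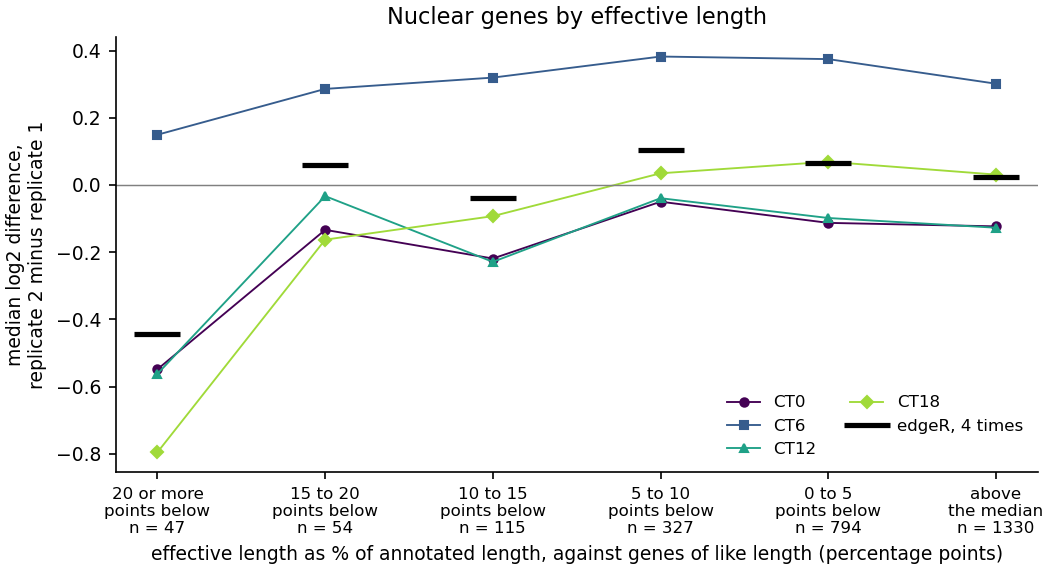
Median log2 difference, replicate 2 minus replicate 1, of nuclear genes of 600 to 1800 bases, in classes by how far their effective percentage lay from the median of genes of like length; coloured points are single times and black bars the edgeR estimate over the 4 times. The 47 genes in the lowest class have a median of -0.44, and the other classes lie between -0.04 and 0.10.

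Total counts separated the replicate sets as the mitochondrial share did, while most of the library quantities that follow overlapped. Nuclear ribosomal RNA rows took 1.71 to 2.76% of counts in replicate 1 and 1.34 to 2.54% in replicate 2. The 8 glial markers summed to 153 to 294 CPM and 134 to 260 CPM, and 6 of 8 were negative for replicate 2 minus replicate 1 with a median of -0.69. Gs2, a glutamine synthetase, was at -1.01 ± 0.27 (edgeR adjusted p = 0.645, DESeq2 adjusted p = 0.0323), alrm, an astrocyte gene, was at -1.96 ± 0.96 (edgeR adjusted p = 0.801), and repo stayed at or below 0.714 CPM. The 14 clock neuron markers summed to 15396 to 42806 CPM in replicate 1 and 32111 to 52566 CPM in replicate 2, with cry, a blue-light receptor, at 1.11 ± 0.22 (edgeR adjusted p = 0.546, DESeq2 adjusted p = 0.00022) and Dh31, a peptide gene, at -0.58 ± 0.19 (edgeR adjusted p = 0.777). Markers of 3 other cell types overlapped in sum. Photoreceptor markers summed to 140 to 261 and 119.8 to 455 CPM (norpA -0.45 ± 0.15, Arr1 2.61 ± 1.02). In the lowest sum of each set most was norpA, at 105.99 to 143.1 and 87.2 to 105.7 CPM, which did not overlap. ninaE and Arr2 reached 177 and 253 CPM in replicate 2, against at most 16.0 and 22.7 CPM in replicate 1. Rh4 reached 52.1 CPM in replicate 1, against at most 1.56 CPM in replicate 2. Hemocyte markers summed to 72.6 to 206 and 118 to 142 CPM (srp -2.25 ± 2.64, Pxn 0.33 ± 0.44). Fat body markers summed to 14.1 to 31.6 and 9.81 to 33.0 CPM (Yp3 -1.03 ± 1.55, Yp1 -1.16 ± 2.61). The muscle list summed to 259.4 to 304.7 CPM in replicate 1 and 216 to 248 CPM in replicate 2, without overlap; nearly all of it was flw (-0.29 ± 0.15), a phosphatase gene not restricted to muscle, and the other member named by the rule, TpnC73F, was at 0 in replicate 1 and reached 1.19 CPM in replicate 2. The 8 neuronal markers had a median of -0.08, with brp at 0.36 ± 0.18 and Syt1 at -0.28 ± 0.15. None of these genes passed in edgeR. The part of depth, glial RNA or the mix of clock neurons in the mitochondrial difference was not tested.

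With all libraries kept, the nuclear partners of these genes had medians near 0. Of 25 nuclear genes that transcribe, process or maintain the mitochondrial genome, 14 were negative for replicate 2 minus replicate 1 and the median was -0.03 on the log2 scale. Among them mtTFB1, which modifies mitochondrial ribosomal RNA, was at 0.30 ± 0.16, and mtRNApol, the mitochondrial RNA polymerase, was at 0.52 ± 0.34. The median was -0.01 over 9 nuclear subunits of complex IV, 0.09 over 12 of ATP synthase, -0.01 over 9 of complex III and 0.06 over 8 core subunits of complex I. These medians depended on the libraries. Without the CT6 replicate 1 library they were -0.19 for complex IV, -0.10 for ATP synthase, -0.29 for complex III and 0.07 for complex I. That of the 25 genes was then 0.04. With all libraries kept, no gene of these lists passed in edgeR, DESeq2 or at an unadjusted p under 0.05. The 2 smallest p-values belonged to COX7A at 0.19 ± 0.17 and COX7C at -0.18 ± 0.20 for complex IV, and to ATPsynbeta at -0.30 ± 0.14 and ATPsynB at 0.22 ± 0.15 for ATP synthase. For complex III they belonged to UQCR-11 at -0.61 ± 0.27 and ox at -0.70 ± 0.31, and for complex I to ND-49 at -0.35 ± 0.15 and ND-24 at 0.21 ± 0.14. All of these estimates were nearer to 0 than those of COX1, COX2, COX3, CYTB, ATP6, ATP8, ND1, ND4 and lrRNA; the difference between the nuclear and the mitochondrial groups was not tested.

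The nuclear genes whose pattern over the 8 libraries came nearest to the mean of the 9 mitochondrial mRNAs were found by the root mean square difference of centred log2 CPM, over 9987 tested nuclear genes with a median of 0.74. They were Uhg5 (0.163) and Uhg4 (0.173), both non-coding host genes of small nucleolar RNAs, then CG40439 (0.178), mamo, a zinc-finger transcription factor (0.1799), and CG40228 (0.192). On the same measure ATP6 was at 0.112, COX2 at 0.129, COX3 at 0.171 and CYTB at 0.184. ATP8, COX1, ND1, ND5 and ND4 were at 0.256 to 0.408. These nuclear genes, picked as the nearest of 9987, thus lay closer to that mean than these latter mRNAs, so the pattern was not particular to mitochondrial genes. Uhg5 was at 52.3 to 71.0 CPM in replicate 1 and 25.2 to 45.3 CPM in replicate 2, and mamo at 507 to 846 CPM and 286.9 to 506.9 CPM. The effective percentage, averaged over libraries, was 44.7 for Uhg5, 46.5 for Uhg4, 40.6 for CG40439, 40.9 for CG40228 and 68.9 for mamo, the longest of the 5. Shorter genes have lower percentages. The median nuclear gene within 10% of 525 bases had 47.3 to 56.9%, and Uhg4 has 491 and CG40228 540.5 bases. It had 58.6 to 67.6% near 685 bases (CG40439 has 688) and 63.9 to 72.4% near 789 bases (Uhg5 has 786).

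For each of the 10 genes the time means differed by less than the libraries of the same time, as log2 SD. Each time holds a library of each replicate number, so the SD within a time includes the replicate difference, which a time mean averages. The comparison therefore cannot decide whether the genes change with time. The share of counts was 0.119% ± 0.0680 (SD, n = 2) at CT0, 0.0900% ± 0.0294 at CT6, 0.126% ± 0.0390 at CT12 and 0.132% ± 0.0838 at CT18. At CT0 the 2 libraries, at 0.167% and 0.0706%, lay farther apart than any 2 of these means. By gene, COX1 averaged 399.9 ± 145.4 CPM (SD, n = 2) at CT0, 285.3 ± 75.5 at CT6, 407 ± 91.9 at CT12 and 426.1 ± 260.6 at CT18. On the log2 scale the SD of the 4 time means was 0.04 to 0.43 over the 10 genes, and the SD within a time was 0.60 to 1.42, against a median of 0.42 over all genes tested.

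None of the 10 genes passed the edgeR test for any change over the 4 times (unadjusted p of 0.583 to 0.969, all with an adjusted p of 0.99983), and none of 9999 genes did (0%). No gene of the 10 had an unadjusted p under 0.05, against 330 of 9999 (3.3%), and limma-voom and DESeq2 also passed none of them, where DESeq2 passed 0.297% of all genes. For CT12 minus CT0 none of the 10 passed in edgeR (background 0%), none had an unadjusted p under 0.05 (2.11% of genes did), and none passed in limma-voom or in DESeq2 (background 0.136%). Their median was -0.03 on the log2 scale, with 6 of 10 negative. Leaving out the CT0 replicate 2 library gave a median of -0.61 with all 10 negative, and leaving out the CT0 replicate 1 library gave 1.09 with 0 negative. Leaving out the CT12 replicate 1 library gave -0.50 with 9 negative, and leaving out the CT12 replicate 2 library gave 0.33 with 1 negative, so each of these 4 libraries moved the direction or the count. These fits hold no replicate term, so leaving out a library brings the replicate difference into the difference between times. limma-voom on all 8 libraries gave 0.15 with 0 negative.

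For CT18 minus CT6 all 10 genes were positive, from 0.07 to 0.71 with a median of 0.45, where all genes tested had a median of -0.02. None of the 10 passed in edgeR (background 0%; smallest adjusted p = 0.630), in DESeq2 (background 0.499%) or in limma-voom, and none had an unadjusted p under 0.05, against 9.65% of genes. Without the CT18 replicate 1 library the median was -0.31 with 7 negative, and without the CT18 replicate 2 library it was 0.92 with 0 negative. Without the CT6 replicate 1 library it was 0.78 with 0 negative, and without the CT6 replicate 2 library 0.12 with 2 negative. Over all 8 libraries the nuclear subunits had medians of 0.45 for complex IV, 0.46 for ATP synthase, 0.40 for complex III and 0.29 for complex I, and none of them passed either. Without the CT18 replicate 1 library these medians were 0.41, 0.43, 0.25 and 0.31, while the mitochondrial median was negative. That fit holds no replicate term and sets both CT6 libraries against CT18 replicate 2 alone. The replicate difference, larger in the mitochondrial genes than in the nuclear subunits, therefore enters it. This contrast cannot decide whether the groups differ over time, and the difference was not tested. Over all 8 libraries the nuclear medians were 0.01, 0.03, -0.03 and -0.05 after each library's trend of expression against effective length had been removed. That of the 10 mitochondrial genes was then -0.14 with 6 negative. With the trend against annotated length removed instead, a setting not planned in advance, the mitochondrial median was 0.14 with 4 negative. The nuclear medians were then -0.06 to 0.02, so the mitochondrial direction depended on the length used.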

How the data were processed

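Each library came with a gene table holding length, effective length, TPM and estimated count, per the file headers. The submitters' processing notes name DRAGEN, Salmon and dm6, and no source used here gives their versions, roles or annotation. The deposited estimated (expected) counts are not normalized; they were rounded here, and those of the 10 genes were whole to within 1e-06. The deposited TPM values are scaled by effective length. Genes were kept by edgeR's filterByExpr (minimum count 10, by time), leaving 9999. edgeR 4.0.16 (R 4.3.3) quasi-likelihood tests with TMM factors and Benjamini-Hochberg adjustment at 0.05 used time as a factor, and time plus replicate number for the replicate difference, with 4 and 3 residual degrees of freedom. limma 3.58.1 and DESeq2 1.42.0 were alternatives, beside other scalings, filters, length corrections and leaving out each library. log2 CPM used a prior count of 1. The steps were tested on simulated data. A floor of 3 counts lies at 0.102 to 0.2 CPM. Members and lists were chosen with earlier results of these data known. Named genes were the 10 members, the 5 nuclear genes nearest in pattern and, in each list, the 2 genes with the smallest p; Pur-alpha, Pdf, Trissin, mor and the markers shown were named outside that rule, after their values were seen. The mitochondrial rows were identified from the RefSeq gene table. Versions of the other tools were Python 3.11.15, scipy 1.17.1 and matplotlib 3.10.9.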

Additional observations from a re-analysis of the deposited data

Results flagged for a closer look

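The CT12 replicate 2 library lay apart from the other 3 replicate 2 libraries in 3 quantities. COX3 was at 82.2 CPM there against 52.5 to 53.6 CPM in the others, a gap of 0.963 of the range of the set. CYTB was at 171.8 CPM against 137.3 to 140.8 CPM, a gap of 0.8999 of the range. The share of counts on the 10 genes was 0.0983% against 0.0692 to 0.0732%, a gap of 0.865. Each gap is above Dixon's critical value for 4 libraries, which chance passes in about 5% of sets. In all 26 sets were examined; the 3 quantities are not independent. This library also had the lowest total, 15006258 counts; the part of depth was not tested.

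Counts above the 3 that a count of 0 allows were present on mitochondrial rows outside the set, up to 19 in a library, for ND2. ND3 had 3 to 13 counts in replicate 1 and 0 to 3 in replicate 2, and ND6 had 3 to 16 and 0 to 2. These are raw counts, and the replicate 2 libraries held fewer counts in total. In CPM the sets overlapped for ND3 and did not for ND6. For ND6 the nearest values were 0.109 CPM (CT6 replicate 1, 3 counts) and 0.104 CPM (CT18 replicate 2, 2 counts). Both lie at or below the floor of 3 counts, and ND6 was not tested. Replicate 1 was higher in CPM at 3 of the 4 times for ND2 and at 2 for srRNA.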

How the results depend on the processing

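All 10 genes were negative for replicate 2 minus replicate 1 under every alternative (9 of 9 with a filter of 5 CPM in 2 libraries, which leaves out ND5), with medians of -0.89 to -1.29. The number that passed was 0 in edgeR and 6 with DESeq2. It was 2 (COX2 and CYTB) on log2(TPM + 0.1), where these were the only 2 of 9999 genes to pass. With each of the other alternatives it was 0. The cause of these differing numbers was not tested. The share of counts differed by -0.0779 percentage points for replicate 2 minus replicate 1, and by -0.331 as a share of TPM. By time the share of TPM was 0.447, 0.348, 0.446 and 0.426% at CT0, CT6, CT12 and CT18; TPM divides by the short effective lengths. Leaving out single libraries gave -0.0928 to -0.0659 percentage points for the difference, 0 genes passing in each of the 4 tests, and shares of 0.0706 to 0.167, 0.0692 to 0.111, 0.0983 to 0.153 and 0.0732 to 0.192% at the 4 times; a lone library is then assumed to vary like the others. Among all genes, 249, 101, 192 and 4 passed any change, CT12 minus CT0, CT18 minus CT6 and the replicate difference with no filter, and 28, 12, 47 and 117 with DESeq2, against 0 in each edgeR test; leaving out 1 library gave 0 to 5. Of the 47 nuclear genes with short effective lengths, 40 to 42 were negative under all alternatives.

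The labels give the same replicate numbers at each time. Deviations of same-numbered libraries from their time means correlated across genes at -0.0661 to 0.23 over the 6 pairs of times, not all above 0.1. Of the 8 libraries, 4 correlated best with a library of their own number. These values do not settle whether the numbers pair the samples. Total counts and the mitochondrial share separated the replicate sets. With a replicate block, 0 of the 10 genes passed in each of the 3 time tests, with medians of 0.15 for CT12 minus CT0 and 0.33 for CT18 minus CT6. Without time in the model the replicate difference had a median of -1.04 and 0 genes passed. Depth limits ND5 and ND4 most.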
